A study of Mus musculus with 3 samples.

Results

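The genes described here are 9 components of the major histocompatibility complex (MHC) class I pathway, namely the light chain B2m, the heavy chains H2-K1 and H2-D1, the transactivator Nlrc5, the peptide transporter subunits Tap1 and Tap2, the peptide editors Tapbp and Tapbpl, and the trimming peptidase Erap1. They were chosen by name from the 32285 genes listed in the files, of which 23596 had a UMI in the cells kept, and all 9 were detected in each library. Each gene was measured as UMI counts per 1000000 UMIs (CPM) over the pooled cells of a library, as a share of cells at equal depth, and between cell states.

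MHC class I molecules sit on nearly all nucleated cells and show peptides from inside the cell to CD8+ T cells. A heavy chain folds with the light chain β2-microglobulin in the endoplasmic reticulum, where the TAP transporter delivers peptides from the cytosol, tapasin bridges the transporter and the empty heavy chain, and ERAP1 shortens peptides to a fitting length. NLRC5 is an IFN-γ-inducible member of the NOD-like receptor family that has no DNA-binding domain for class I promoters of its own and acts there through a complex of RFX, CREB-type and NF-Y proteins, and intestinal epithelium is known to raise class I molecules when T cells release IFN-γ nearby.

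The sc-RNAseq data came from colon organoids of Mus musculus, with 1 library for each of 3 conditions, which were no treatment, IFN-γ (IFNy in the labels) over 24 h and IFN-γ over 48 h. Live epithelial cells had been sorted and captured with droplet 3' chemistry, and the number of organoid lines, wells and mice behind each library is not given in the sources used here. The study derived its organoids from wild-type mice and names C57bl/6 and 2 reporter strains as sources, with 1 age range for all its mice, and does not tie a strain or an age to these 3 libraries. Since each condition had 1 library, no test across samples could be made, and all intervals below are 95% intervals for counting error only, with no measure of the spread between cultures. Cells that held 5000 or more UMIs and 400 or more genes, with no more than 15% of UMIs from mitochondrial genes, numbered 1058, 917 and 2934 in the untreated, 24 h and 48 h libraries. These cells held 49801935, 71077817 and 47243500 UMIs, with medians per cell of 33550, 68784 and 10772, so the 48 h cells were the shallowest. Between 1 and 4 cell barcodes were shared by any pair of libraries. All 7 epithelial marker genes fixed for the label were detected in every library, while 10 immune marker genes summed to 109, 52 and 46 UMIs with Ptprc and Tyrobp at 0 in each, and 9 stromal and endothelial marker genes summed to 125, 63 and 82 UMIs with Col1a1, Col3a1 and Lum at 0 in each. Doublets were not called and remained among the cells.

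The promoters of the light chain and of both heavy chains carry a shared arrangement, which is shown because these genes are read together below. The motifs searched on both strands in the 250 bases before each RefSeq start (GRCm38.p6) were GAAANNGAA, a core of the interferon-stimulated response element, TTCNNNGAA, a gamma-activated site, GGGNNTTCC, a κB-type site, TGACG, the CRE-type core of the X2 box, and ATTGG, the inverted CCAAT of the Y box. Of 32851 promoters of this length, 7.13%, 7.02%, 4.98%, 17.8% and 33.8% held them, in that order. The B2m window lies on chromosome 2 at chr2:122147533-122147653 on the plus strand, from 154 to 34 bases before the start, in no annotated UTR. The H2-K1 window lies at chr17:34000348-34000473 on the minus strand, in the 126 bases before the start. Capitals mark the motif matches, which are GAAACTGAA, TGACG and ATTGG in B2m and GGGGATTCC, TGACG and ATTGG in H2-K1. Only these exact letters were searched, so other forms of the same elements are not marked and may be present.
B2m: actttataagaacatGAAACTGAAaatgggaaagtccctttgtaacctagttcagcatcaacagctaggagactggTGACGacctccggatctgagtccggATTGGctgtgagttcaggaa
H2-K1: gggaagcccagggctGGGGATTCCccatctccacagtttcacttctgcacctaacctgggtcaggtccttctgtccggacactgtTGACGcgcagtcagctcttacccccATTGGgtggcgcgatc

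In B2m, H2-K1 and H2-D1 the TGACG and the ATTGG began 25 bases apart on the same strand. This spacing was chosen after the matches had been seen, and 18 of 32851 promoters (0.0548%) held it, from 15 genes that included the heavy chain gene H2-M3. The 30 bases that span both motifs lie at chr2:122147609-122147638 on the plus strand for B2m, at chr17:34000359-34000388 on the minus strand for H2-K1 and at chr17:35262993-35263022 on the plus strand for H2-D1, where they fall within a UTR of 1 longer H2-D1 transcript model. They are shown with the motifs in capitals so that the bases between them can be compared.
B2m: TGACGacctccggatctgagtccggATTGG
H2-K1: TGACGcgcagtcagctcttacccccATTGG
H2-D1: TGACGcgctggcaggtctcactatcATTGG
Of the 20 bases between the motifs, 13 were identical in H2-K1 and H2-D1, 3 in B2m and H2-K1 and 2 in B2m and H2-D1. H2-D1 also held GGGGATTCC 171 bases before its start, and Tap1 held TGACG 86 bases before its start, in a region that Psmb9 transcript models overlap. Erap1 held TTCACTTTC, the interferon core on the opposite strand, in the 9 bases before its start, and Tapbp held ATTGG at 2 places. None of the 6 genes with a promoter sequence held the gamma-activated site letters in this window.

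Nlrc5 (ENSMUSG00000074151, chromosome 8, 94434356 to 94527272, GRCm38) had the fewest UMIs of the 9 genes before treatment. It stood at 0.341 CPM (interval 0.199 to 0.547, 17 UMIs) in the untreated library, and after treatment it stood at 42.8 CPM at 24 h and 91.4 CPM at 48 h. The level was thus 126-fold higher at 24 h (interval 78.3 to 216) and 268-fold higher at 48 h (interval 167 to 460.3). Irf1, a transcription factor gene of the IFN-γ response, was higher by 3.82 on the log2 scale of the CPM ratio at 24 h, against 6.97 for Nlrc5.

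B2m (ENSMUSG00000060802, chromosome 2, 122147686 to 122153083) encodes the light chain that all class I heavy chains share. Its level was 71.9 CPM without treatment, 487 CPM at 24 h and 602 CPM at 48 h, which is 6.76-fold (interval 6.54 to 7.003) and 8.37-fold (interval 8.08 to 8.66) above the untreated library. H2-K1 (ENSMUSG00000061232, chromosome 17, 33996017 to 34000347), a classical heavy chain, stood at 268 CPM without treatment, 680.4 CPM at 24 h and 1029 CPM at 48 h. H2-D1 (ENSMUSG00000073411, chromosome 17, 35262730 to 35267499), the other classical heavy chain, stood at 229 CPM, 603 CPM and 608 CPM. Both heavy chains were expressed without the cytokine and their ratios to the untreated library were smaller than that of B2m, at 2.54-fold for H2-K1 and 2.64-fold for H2-D1 at 24 h, and 3.83-fold and 2.65-fold at 48 h. The number of B2m UMIs for each H2-K1 UMI was 0.268 before treatment and 0.715 and 0.585 in the 24 h and 48 h libraries, with intervals that did not overlap. Reads of the heavy chains can be hard to assign, and of the 91-base windows in the last 500 bases of their transcripts 1 of 1323 for H2-K1 and 0 of 811 for H2-D1 recurred in another gene.

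Tap1 and Tap2, the subunits of the peptide transporter, lie close together on chromosome 17 (34187553 to 34197225 and 34203527 to 34216321) but differed in size of response. Tap1 stood at 5.30 CPM without treatment and at 183 and 242 CPM in the 24 h and 48 h libraries, which gave a ratio of 34.5-fold (interval 30.6 to 39.1) at 24 h and 45.7-fold (interval 40.5 to 51.8) at 48 h. Tap2 stood at 2.01, 14.0 and 17.0 CPM, with a ratio of 6.97-fold (interval 5.67 to 8.65) and 8.44-fold (interval 6.85 to 10.5). There were 2.64 Tap1 UMIs for each Tap2 UMI before treatment (interval 2.09 to 3.36), 13.1 at 24 h (interval 12.3 to 14.0) and 14.3 at 48 h (interval 13.3 to 15.4). The treated libraries overlapped each other in this ratio and lay above the untreated one.

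Tapbp, which encodes tapasin, stood at 27.0, 134 and 212 CPM in the untreated, 24 h and 48 h libraries. Tapbpl, which encodes the related editor TAPBPR that works outside the loading complex, stood at 8.63 CPM, 66.9 CPM and 61.9 CPM. The ratio to the untreated library was larger for Tapbpl at 24 h (7.74-fold, interval 7.01 to 8.57, against 4.97-fold, interval 4.69 to 5.26) and the editors' intervals overlapped at 48 h (7.17-fold, interval 6.47 to 7.95, against 7.88-fold, interval 7.44 to 8.35). Of the 91-base windows near the 3' end of Tapbpl, 11 of 410 (2.68%) recurred in Ppip5k1, whereas none of those of B2m, Nlrc5, Tap1, Tap2, Tapbp and Erap1 recurred in another gene. Erap1, the peptidase, had the smallest ratio at 24 h, with 30.6, 57.3 and 81.2 CPM in the 3 libraries, or 1.87-fold (interval 1.77 to 1.99) and 2.66-fold (interval 2.50 to 2.82).

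**Figure D1:**
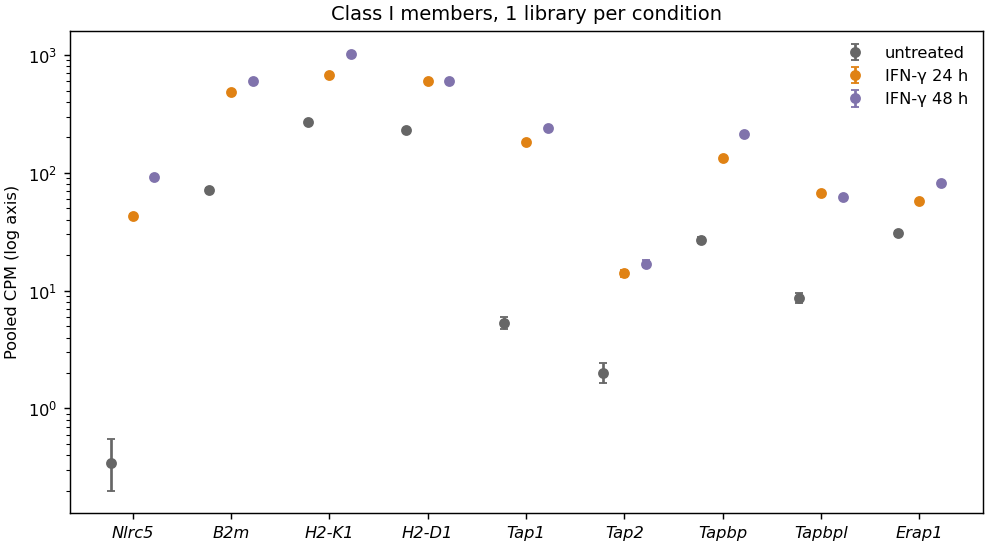
Pooled CPM (log axis) of the 9 genes in the untreated, 24 h and 48 h libraries, with exact Poisson 95% intervals as bars, 1 library per condition. Each gene is lowest in the untreated library, and Nlrc5 spans the widest range, from 0.341 to 91.4 CPM.

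At 24 h 8 of the 9 genes were at least 2-fold above the untreated library, where 3.46% of 17412 genes with 10 or more UMIs over both libraries were. At 48 h it was 9 of 9, where 5.26% of 17376 genes were. The median log2 ratio over the 9 genes was 2.76 at 24 h and 2.98 at 48 h, beside −0.46 and −0.18 over all genes. Scaling by TMM factors moved these comparisons up by 0.45 and 0.19 and took Erap1 past 2-fold at 24 h. In cells of 10000 to 40000 UMIs only, Erap1 fell under 2-fold at 48 h, at a log2 ratio of 0.60. Over all cells kept, the lowest log2 ratios were those of Erap1 at 24 h (0.91) and of H2-D1 at 48 h (1.41). No gene of the 9 was below the untreated library under any alternative tried. The 24 h and 48 h ratios share the untreated library.

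Between 24 h and 48 h the differences were smaller and depended on the depth of the cells compared. The CPM level was higher at 48 h for 8 of the 9 genes, with the largest difference for Nlrc5, at 1.09 on the log2 scale (interval 1.03 to 1.16), Tapbp at 0.67, H2-K1 at 0.60 and Erap1 at 0.50. Only Nlrc5 was at least 2-fold higher, where 11.6% of 16814 genes were. The median of all genes in this comparison was 0.26, so that H2-D1 at 0.01 (interval −0.01 to 0.03) and Tapbpl at −0.11 (interval −0.18 to −0.05) lay below it and B2m at 0.31 close to it. In cells of 10000 to 40000 UMIs only, the median log2 ratio of the 9 genes was −0.41, with Nlrc5 at −0.40, Tap1 at −0.45 and Erap1 at −0.66, and H2-D1 at −0.46, while H2-K1 was higher at 48 h by 0.20 and B2m by 0.38. At 24 h the 229 shallowest cells held 121 CPM of Nlrc5 and the 230 deepest 35.9 CPM, and at 48 h the 734 shallowest and 734 deepest cells held 124 and 75.6 CPM. A later rise of Nlrc5, Tap1 and Erap1 in a given cell thus cannot be told apart from the different depths of the treated libraries.

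The per-cell measurements were made after each cell had been thinned at random to 5000 UMIs. B2m was then found in 26.0% of the cells without treatment and in 88.7% and 93.3% of those at 24 h and 48 h, and the intervals of the 3 libraries did not overlap. H2-K1 was found in 71.6%, 96.0% and 98.8% of cells, and H2-D1 in 69.0%, 93.9% and 94.8%. So the heavy chains were detected in most untreated cells at this depth and the light chain was not. Nlrc5 was found in 0.284% of the untreated cells (3 of 1058, interval 0.0585 to 0.826), in 24.5% at 24 h (interval 21.8 to 27.5) and in 39.6% at 48 h (interval 37.8 to 41.4). Without thinning these shares were 1.32%, 81.8% and 65.7%, an order between the treated libraries that went with the depth. The makeup of the libraries by the cell clusters described below also differed. Cluster 0 held 19.4% of the cells at 24 h and 46.4% at 48 h, and its thinned Nlrc5 share was 43.3% and 44.6%. In clusters 1 to 5 this share was higher at 48 h, at 11.5% and 28.6% in cluster 1 and 21.1% and 24.5% in cluster 5. The part of this makeup in the pooled share was not tested. Tap1 was found in 3.21%, 62.9% and 73.8% of thinned cells and Tap2 in 1.23%, 8.94% and 8.21%, with overlapping intervals for Tap2 between the treated libraries. For the editors the shares were 13.7%, 53.4% and 67.2% for Tapbp and 4.91%, 32.3% and 27.9% for Tapbpl. Erap1 was found in 18.2%, 32.1% and 36.2%.

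Summed over the 9 genes, the median cell held 3 UMIs of each 5000 without treatment (quartiles 2 and 5), 12 at 24 h (quartiles 9 and 15) and 15 at 48 h (quartiles 12 and 19). At zero were 50 of 1058 untreated cells and no cell of the treated libraries, where the lowest cells held 1 UMI at 24 h and 3 at 48 h. Of the treated cells 76.6% at 24 h (interval 73.7 to 79.3) and 93.8% at 48 h (interval 92.8 to 94.6) lay above the untreated 95th percentile of 8 UMIs, where 3.31% of untreated cells lay. The treated distributions overlapped each other widely. These sums include any free RNA in the droplets.

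**Figure D2:**
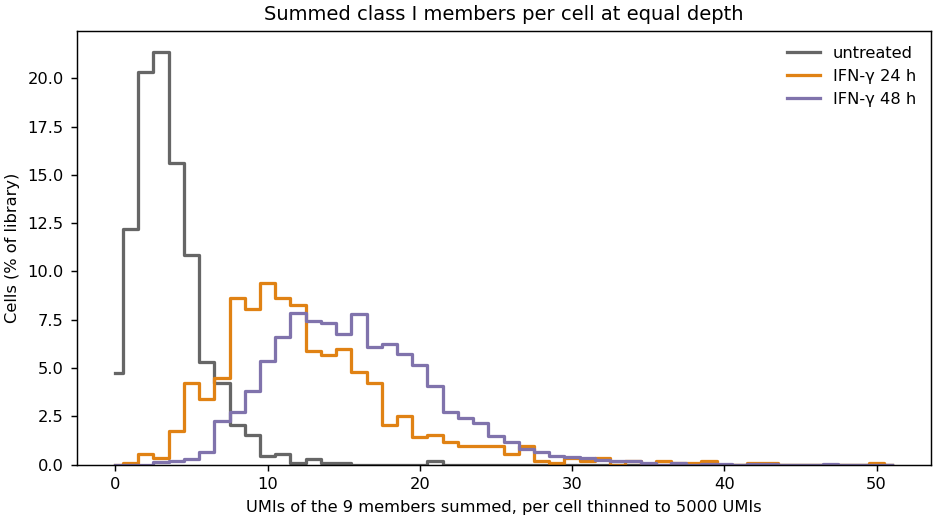
Share of cells (%) in each library by the UMIs of the 9 genes summed per cell, after thinning each cell to 5000 UMIs. The untreated curve lies furthest to the left, with a median of 3 UMIs, and the curves of both treated libraries lie to its right, with medians of 12 and 15.

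Free RNA was read from the barcodes under 2000 UMIs of the same libraries. These held B2m at 111, 662 and 765 CPM in the untreated, 24 h and 48 h libraries, which is above the level in cells, and H2-K1 at 296, 638 and 828 CPM, which is near it. Nlrc5 stood at 0.0344, 9.83 and 11.0 CPM there, below the 0.341, 42.8 and 91.4 CPM of the cells, and Tap1 at 3.54, 103 and 97.1 CPM. The libraries held no cell type known to lack class I, so the part of free RNA in the shares of cells was not tested. With 10% of each cell taken as free RNA and removed, the median log2 ratio of the 9 genes was 2.79 at 24 h and 3.02 at 48 h. The 10% was assumed, not estimated from these libraries, and was the same for cells of every depth. Barcodes of the 48 h library held at least 1624 UMIs each, beside a median of 10772 in its cells, and a share above 10% was not tried.

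The other genes of the pathway were read from lists, each by how many of its measured genes were at least 2-fold above or below the untreated library. Over all genes, 3.46% were at least 2-fold higher at 24 h and 5.26% at 48 h. Of 12 other class I heavy chain genes found in the files, 8 were higher at 24 h and 8 at 48 h and none was lower, with a median log2 ratio of 2.06 and 1.70 beside −0.46 and −0.18 over all genes. H2-Q6 and H2-Q7 had log2 ratios of 5.42 and 4.43 at 24 h, and H2-T3 one of 4.19 that rests on 1 untreated UMI (interval 1.58 to 9.54). Among the last 500 bases of their transcripts, 26.6% of H2-Q6, 25.7% of H2-T22, 12.9% of H2-T23, 9.27% of H2-Q4 and 4.55% of H2-Q7 windows recur in other genes, so their counts are uncertain. The class I-like genes went the other way, with 3 of 4 measured genes at least 2-fold lower at both times, where 26.0% of all genes were at 24 h and 16.6% at 48 h, namely Cd1d1, which presents lipids (−2.41 at 24 h), Hfe, which regulates iron uptake (−2.12), and Fcgrt, the neonatal Fc receptor (−1.32), whereas Procr stood at 0.02. With TMM factors Cd1d1 and Hfe stayed past 2-fold and Fcgrt, still lower, did not. All 5 genes of the immunoproteasome and its activator were at least 2-fold higher at both times, from 2.30 for Psme2 to 8.94 for Psmb8 at 24 h, and none of the 3 constitutive proteasome genes was, with Psmb6 the highest at 0.59 at 24 h. None of 6 general chaperones of the endoplasmic reticulum was past 2-fold in either direction, with Calr, which encodes calreticulin of the loading complex, at 0.37 and 0.76, and Uggt1, a glucosyltransferase that returns poorly loaded class I molecules, at 0.27 and 0.97. Of 12 transcription factor genes that act on class I promoters, 2 were at least 2-fold higher at 24 h and 2 at 48 h, and none was lower. Irf1 was past 2-fold at both times, at 3.82 and 3.72. Rfx5 and Creb1 were not, with Rfx5, a DNA-binding partner of NLRC5, at 0.56 and 0.87 and Creb1 at −0.54 and −0.10. With TMM factors Psmb6 at 24 h, Uggt1 at 48 h and Rfx5 at both times passed 2-fold, and Creb1 at 48 h turned to the other side of 0. All 6 genes listed as a check of the treatment were higher at both times.

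**Figure D3:**
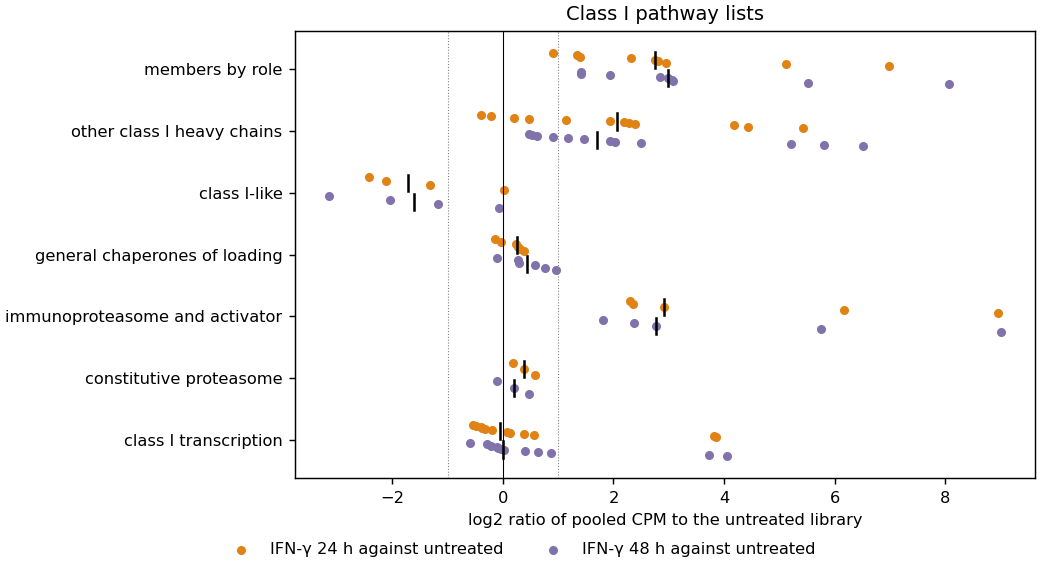
log2 ratio of pooled CPM to the untreated library for each measured gene of 7 class I lists, at 24 h and 48 h, with vertical bars at the list medians and dotted lines at 2-fold. The immunoproteasome genes and the 9 genes described here lie to the right of 0, and 3 class I-like genes lie at or below −1.18.

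Cell states were taken from 9 clusters built without the class I genes among the variable genes. They comprised 3 proliferating-like clusters (clusters 1, 2 and 6), a goblet-like cluster led by Muc2 and Spink4 (cluster 3), a colonocyte-like cluster led by Krt20 and Slc26a3 (cluster 5), an enteroendocrine-like cluster led by Chgb and Chga (cluster 7), and unnamed clusters led by Angpt2 (cluster 0), Stox2 (cluster 4) and Gm26917 (cluster 8). Cluster 0 had 9 stem markers higher than the other cells but was left without a name because of its shallow depth and because no stem marker was among its 10 leading genes. In clusters 0 to 7 all 9 genes were higher in both treated libraries than in the untreated library, except that Nlrc5 had no UMI in untreated goblet-like cells and was read against a floor of 3 counts. In cluster 8, which held 15, 26 and 9 cells, the 8 genes with a value at 24 h and the 7 at 48 h were also higher. The median log2 ratio at 24 h ranged from 1.76 in cluster 8 and 2.18 in colonocyte-like cells to 3.80 in enteroendocrine-like cells.

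**Figure D4:**
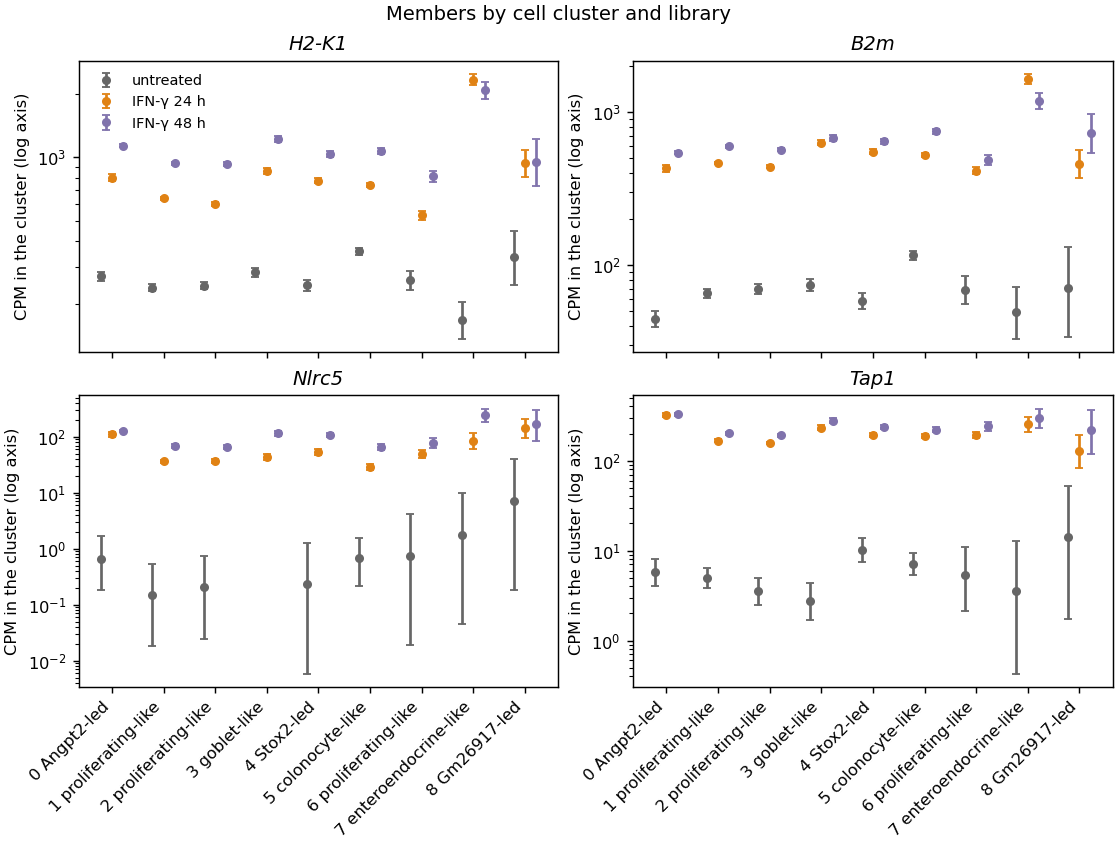
CPM (log axis) of H2-K1, B2m, Nlrc5 and Tap1 in the 9 clusters of each library, with exact Poisson 95% intervals, and no point where a cluster had no UMI. The untreated points lie below both treated points in each cluster shown, and H2-K1 and B2m of treated enteroendocrine-like cells lie above all other clusters.

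Enteroendocrine-like cells, the hormone-secreting cells of the epithelium, had the lowest H2-K1 and H2-D1 levels among the clusters before treatment and the highest after it. They numbered 30, 13 and 21 in the untreated, 24 h and 48 h libraries. Their H2-K1 level was 168 CPM before treatment, 2343 CPM at 24 h and 2084 CPM at 48 h, against 269.5, 669 and 1024 CPM in all other cells of the same libraries. Relative to those other cells, H2-K1 differed by −0.68 on the log2 scale without treatment (interval −0.99 to −0.39), by 1.81 at 24 h (interval 1.72 to 1.89) and by 1.03 at 48 h (interval 0.89 to 1.16). B2m showed the same order, with 49.6, 1640 and 1182 CPM in enteroendocrine-like cells and 72.2, 479 and 599 CPM in the other cells. H2-D1 stood at 165, 1530 and 972 CPM in them and at 230, 597 and 606 CPM elsewhere.

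At equal depth the difference in H2-K1 was seen across the enteroendocrine-like cells. The 13 enteroendocrine-like cells at 24 h held 1 to 20 H2-K1 UMIs of each 5000, with a median of 11, where the other 904 cells held 0 to 19 with a median of 3. At 48 h the 21 cells held 0 to 18 with a median of 9, where the other 2913 cells held 0 to 17 with a median of 5. In the untreated library the 30 cells held 0 to 3 with a median of 0, where the other 1028 cells held 0 to 12 with a median of 1. The groups overlapped in each library, so the difference was one of medians. B2m had a median of 4 UMIs against 2 at 24 h and of 3 in both groups at 48 h, and Tap1 had a median of 1 UMI in both groups of each treated library.

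Of the 9 genes, 7 had intervals above those of other cells in enteroendocrine-like cells at 24 h and 5 at 48 h, and none below, while in the untreated library none was above and 3 were below. Over all genes, 18.1% of 15505 had an interval above 0 at 24 h, 12.6% of 15387 at 48 h, and 15.2% of 16241 had one below 0 in the untreated library, and such an interval is reached more easily by genes with many UMIs. Tapbpl and Erap1 had intervals that included 0 at both times. All these intervals pool the UMIs of each group and leave out the spread between cells. At equal depth the 13 cells at 24 h had lower means than the other cells for Tap1, Tap2 and Tapbpl. These were 1.15 against 1.17, 0.0769 against 0.0973 and 0 against 0.420 UMIs. The means of B2m, H2-K1, H2-D1, Nlrc5, Tapbp and Erap1 were higher, with a standard deviation over cells of 4.59 around 5.38 for B2m. Of the 12 other class I heavy chains, the 9 with a UMI in enteroendocrine-like cells at 24 h were all higher there, 7 of them with an interval above 0. H2-Q1, H2-T3 and H2-M2 had no UMI in these cells and were left out, so they could not count as lower. The median difference of the 9 was 1.57 on the log2 scale, which is the value of H2-T24 and rests on 1 UMI (interval −3.76 to 4.11). The immunoproteasome genes had a median difference of 0.44. The median difference over all genes was 0.32 without treatment, 0.21 at 24 h and 0.14 at 48 h. H2-T23, a non-classical heavy chain of which 12.9% of 3' windows recur elsewhere, was higher by 2.20 and Psmb8 by 0.84. Of the 6 genes listed as a check of the treatment, 4 were also higher in enteroendocrine-like cells at 24 h with an interval above 0, and 2 were lower, among them Gbp2, a guanylate-binding protein gene, at −0.41 (interval −0.62 to −0.21), and the median of the list was 0.46. The enteroendocrine-like cells were shallower than their libraries, with medians of 11498.5, 26811 and 8382 UMIs, and carried Malat1, a nuclear RNA, at 43334, 18271 and 22618 CPM, and the part of these in the result was not tested.

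Nlrc5, Tap1, Tap2, Tapbp, Tapbpl and Erap1 had their highest level among the 6 clusters with 20 or more cells in every library in cluster 0, in both treated libraries. Clusters 6, 7 and 8 had fewer than 20 cells in a library and were not among these 6. Cluster 8, with only 26 cells at 24 h and 9 at 48 h, held more Nlrc5 than cluster 0 at both times. The enteroendocrine-like cluster 7 held more Nlrc5 than cluster 0 at 48 h, at 245 CPM. Its Tapbp was also higher, at 244 and 368 CPM against 202 and 270 CPM, and its Tap2 at 24 h was 27.9 CPM against 26.7 CPM. It lay below cluster 0 for Nlrc5 at 24 h, Tap2 at 48 h, and Tap1, Tapbpl and Erap1 at both times. Nlrc5 stood at 111 CPM in cluster 0 at 24 h and 129 CPM at 48 h, and colonocyte-like cells had the lowest level at 29.2 and 64.7 CPM. Tap1 stood at 322 and 327 CPM in cluster 0, against 157 and 190.2 CPM in cluster 2, and Erap1 at 137 and 116 CPM, against 38.1 CPM in colonocyte-like cells at 24 h and 63.9 CPM in cluster 2 at 48 h. Before treatment Erap1 already stood highest in cluster 0, at 65.3 CPM against 17.9 CPM in colonocyte-like cells. B2m had the opposite place, with its lowest level of the 6 clusters in cluster 0 in each library, at 44.5, 428 and 544 CPM. Cells of cluster 0 were shallow (medians of 15156, 14849 and 7265 UMIs), with 9.52%, 6.60% and 8.58% mitochondrial UMIs and Kcnq1ot1, a nuclear RNA, at 751, 366 and 297 CPM against 79.4, 29.2 and 45.2 CPM in colonocyte-like cells, and the part of these in the result was not tested. Without the cells of cluster 0 the median log2 ratio of the 9 genes was 2.69 at 24 h and 2.92 at 48 h.

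Colonocyte-like cells, the absorptive cells at the surface, were set against the proliferating-like cells of clusters 1, 2 and 6 in each library. Without treatment the median log2 ratio over the 9 genes was 0.69, with 8 of 9 genes higher in colonocyte-like cells, 6 of them with an interval above 0, and B2m at 116 CPM against 67.5 CPM. Of 14517 genes 26.2% had an interval above 0 in this comparison. At 24 h and 48 h the median was 0.19 and 0.21. The untreated differences were 1.02 for Tap2, 0.78 for B2m and 0.76 for Tapbp, and 1.73 for Nlrc5, which rests on 5 UMIs in each class (interval −0.39 to 3.85), and Erap1 was lower in colonocyte-like cells at −0.60. In the treated libraries B2m was higher in colonocyte-like cells by 0.22 and 0.37 and H2-K1 by 0.26 and 0.21, while at 24 h Nlrc5 was lower, at −0.37 (interval −0.57 to −0.17), and Erap1 at −0.52 (interval −0.70 to −0.35). Goblet-like cells stood above proliferating-like cells by medians of 0.29, 0.48 and 0.38 in the untreated, 24 h and 48 h libraries, in that order. Colonocyte-like against goblet-like cells gave a median of 0.12 without treatment, with 5 of 8 measured genes higher, −0.24 at 24 h, with 0 of 9 higher, and −0.17 at 48 h, with 4 of 9 higher. At 24 h 6 of the 9 had an interval below 0, where 32.5% of 12427 genes had one. The median over the 12341 genes found in both classes at 24 h was −0.17, beside −0.24 for the 9 genes. The difference of these differences between libraries was not tested, since each condition had 1 library.

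The heavy chains parted between 24 h and 48 h in nearly the same way in each state. H2-K1 UMIs for each H2-D1 UMI numbered 1.17 without treatment (interval 1.14 to 1.20), 1.13 at 24 h (interval 1.11 to 1.14) and 1.69 at 48 h (interval 1.67 to 1.72). This ratio needs no scaling of the libraries, and in cells of 10000 to 40000 UMIs it was 1.14, 1.08 and 1.71. From 24 h to 48 h it went from 1.06 to 1.64 in cluster 0, from 1.08 to 1.73 in goblet-like cells and from 1.09 to 1.71 in colonocyte-like cells. In clusters 0 to 7 the intervals at 48 h lay above those at 24 h. Enteroendocrine-like cells already stood at 1.53 at 24 h (interval 1.39 to 1.68) and at 2.14 at 48 h (interval 1.82 to 2.53), after 1.02 without treatment. In colonocyte-like cells the untreated ratio of 1.36 (interval 1.28 to 1.44) was above the 24 h ratio.

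**Figure D5:**
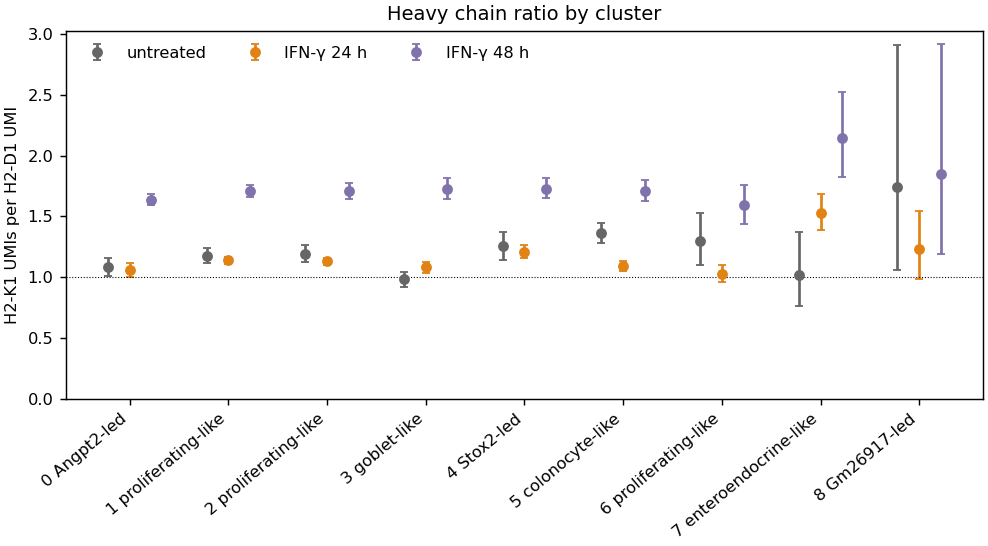
H2-K1 UMIs for each H2-D1 UMI in the 9 clusters of each library, with exact binomial 95% intervals and a dotted line at 1. The 48 h points lie above the 24 h points in each cluster, with overlapping intervals in cluster 8, and enteroendocrine-like cells are highest at 48 h, at 2.14.

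Over the cells of 1 library the correlations between the 9 genes were low at this depth, where most counts of several genes are 0. Over 36 pairs of genes the median Pearson r of the log2 of thinned counts plus 1 was 0.025, 0.069 and 0.036 in the untreated, 24 h and 48 h libraries. The highest in the treated libraries was that of H2-K1 with H2-D1, at 0.31 and 0.16. These values describe sparse counts from cells of one library and are no finding. At 24 h the 225 cells with a Nlrc5 UMI at equal depth held more Tap1 than the 692 without, by 0.43 on the log2 scale (interval 0.23 to 0.62), more H2-K1 by 0.30 and more Erap1 by 0.48, and B2m differed by 0.09 (interval −0.05 to 0.23). At 48 h, with 1162 cells against 1772, the differences were 0.46 for Tap2 (interval 0.10 to 0.83), 0.15 for Erap1, 0.14 for Tapbp, 0.12 for Tap1, 0.01 for H2-K1 and −0.03 for B2m. The cells with a Nlrc5 UMI were not spread evenly over the clusters. At 24 h they made up 43.3% of cluster 0, 11.5% and 13.7% of clusters 1 and 2, and 21.1% of colonocyte-like cells. The part of cell state in these differences was not tested.

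The genes most like the 9 in pattern were sought over the clusters. Over 23 points of cluster and library and 3750 genes, Gm4951, Parp14, Gbp6 and Cxcl9 were among the genes with the highest Pearson r with the mean profile of the 9 genes, at 0.984 for Gm4951 and 0.979 for Cxcl9, which describes the split between untreated and treated libraries. Over 16 points of the treated libraries, centred within each library, with 3642 genes, the 5 highest were Sgms1, Fchsd2, Parva, Scarb2 and Mctp2, from 0.897 to 0.939. The clusters share libraries and depth, and Tapbpl itself had an r of −0.08 with the mean of the 9 on this measure, where Tapbp had 0.898.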

How the data were processed

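The authors made libraries with 10x Genomics 3' v3 chemistry and, per the labels' processing notes, used Cell Ranger 6.0.1 with the build mm10; the annotation release is not given in the sources used here. The deposited matrices hold raw UMI counts for each gene and barcode, without normalization, and include background barcodes down to 851 UMIs. Treatment times were taken from the labels.

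Cells were kept with the study's own minimum of 5000 UMIs and 400 genes and maximum of 15% mitochondrial UMIs. Counts were summed over cells and scaled to CPM. Levels have exact Poisson intervals, ratios exact conditional binomial intervals and shares exact Clopper-Pearson intervals (95%, counting error only). A library at 0 was read at a floor of 3 counts. H2-T10 and H2-Bl of the heavy chain list (2 genes) were not found by name. Genes needed 10 UMIs over both libraries to be counted. No count model and no test were used, as each condition has 1 library. Clusters were made with Seurat 5.3.0 (CCA over 30 dimensions, 20 principal components, resolution 0.5, 1993 of 2000 variable genes left after the class I lists were removed) and named by marker lists. Other tools were edgeR 4.0.16 for TMM factors and numpy 2.4.6 and scipy 1.17.1 for the rest. Positions came from GENCODE vM21 and promoters from RefSeq (GRCm38.p6), which matched 6 of the 9 genes. The scripts were tested on simulated data. The 9 genes and all lists were chosen with earlier results of these data known. The genes named are the 9, genes of the lists, leading genes of clusters and the genes most like the 9, and Gbp2, Malat1 and Kcnq1ot1 beside single results, and some genes of the lists are not reported here. The alternatives tried were other limits on UMIs and mitochondrial share, 2 other scalings, means over cells, thinning, a depth window, free RNA removal, other clusterings and, chosen after seeing the data, leaving out cluster 0 and weighting clusters equally.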

Additional observations from a re-analysis of the deposited data

Results flagged for a closer look

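Barcodes under 2000 UMIs, which no comparison of cells uses, carried each of the 9 genes at a higher level in the treated than in the untreated library. At 24 h and 48 h they held B2m at 662 and 765 CPM, H2-K1 at 638 and 828 CPM, H2-D1 at 488 and 472 CPM, and Nlrc5 at 9.83 and 11.0 CPM. Tap1 stood there at 103 and 97.1 CPM, Tap2 at 6.23 and 4.86 CPM, Tapbp at 77.1 and 89.6 CPM, Tapbpl at 60.1 and 49.3 CPM, and Erap1 at 35.3 and 33.6 CPM.

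From 24 h to 48 h, among clusters with 10 or more cells in both libraries and counting only intervals that leave out 0, 3 values in single clusters went against the others. In enteroendocrine-like cells B2m was lower at 48 h, at −0.47 on the log2 scale, and H2-K1 at −0.17, where 7 clusters were higher for each by that count. In cluster 0 Erap1 was lower, at −0.23, where 6 clusters were higher. These differences between clusters were not tested.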

How the results depend on the processing

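For the 9 genes against the untreated library, all 108 values at 24 h and all 108 at 48 h from 12 alternatives kept their direction, and 92 of 108 did between 24 h and 48 h. At 24 h the median log2 ratio of 2.76 became 2.70 with a minimum of 2000 UMIs or a maximum of 10% mitochondrial UMIs, 3.20 with TMM, 3.22 with median-of-ratios factors, 2.87 as a mean over cells, 2.90 after thinning, 2.89 in cells of 10000 to 40000 UMIs and 2.69 without cluster 0. At 48 h the 2.98 became 3.16 with either set of factors, 2.87 as a mean over cells, 2.83 after thinning, 2.43 in cells of 10000 to 40000 UMIs and 2.85 with clusters weighted equally. Between 24 h and 48 h the 0.41 became 0.36 and 0.32 with minima of 2000 and 10000 UMIs, 0.35 at 10% mitochondrial UMIs, 0.14 with TMM, 0.12 with median-of-ratios factors, 0.30 as a mean over cells and with clusters weighted equally, 0.28 after thinning, 0.34 without cluster 0, and reversed to −0.41 in cells of 10000 to 40000 UMIs. There Nlrc5 stood at −0.40, Tap1 at −0.45, Tap2 at −0.70 and Erap1 at −0.66, and Tap2 reversed also after thinning (−0.15) and with median-of-ratios factors (−0.0051). The 1 gene past 2-fold between 24 h and 48 h became 0 under both minima of UMIs, both sets of factors, the mean over cells, thinning, the depth window and equal weights. Thinning to 2000 UMIs took the median share of cells with a UMI from 13.7%, 53.4% and 67.2% to 5.77%, 26.5% and 38.1%. Without integration the difference of colonocyte-like and proliferating-like cells at 24 h was 0.35 in place of 0.19, and the untreated library gave no value there because 9 cells were proliferating-like. The genes at least 2-fold higher numbered 1959, 2549 and 4164 without a minimum of UMIs, in place of 602, 914 and 1958, and 1224 at 24 h and 1070 between 24 h and 48 h with TMM. The cause of these changes was not tested. No paired analysis was possible because each condition had 1 library. Depth limits Tap2 and, before treatment, Nlrc5 most.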
